A study of Mus musculus with 128 samples.

Results

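The mitosis genes are 38 genes, of 40824 in the deposited read-count table of this mouse liver study, that act between the entry into mitosis and the separation of the daughter cells. They were taken as listed gene rows, by name and not by their values, and all 38 were present and tested in each of the 5 model fits used here. The study profiled single sorted liver cells with Smart-seq3xpress, a plate method that reads full-length transcripts cell by cell, in 4264 cells, and chromatin accessibility by ATAC-seq in 22 further libraries. Its title names PAR3, the polarity protein encoded by Pard3, and hepatocyte proliferation and maturation in liver development and regeneration.

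The groups were these. Wild-type embryos were B6C3F1 (strain C57BL/6XC3H) at E11.5, E12.5, E13.5, E14.5, E15.5, E16.5, E17.5 and E19.5, with 3 libraries at E15.5 and at E16.5 and 2 at each other age; cells up to E14.5 were labelled hepatoblasts and later ones hepatocytes. The knockout series were C57BL/6 mice in which a Cre recombinase removes floxed alleles: Foxa3-Cre;Pard3-fl/fl (Pard3HMKO) at E11.5, E13.5, E15.5, E17.5, E19.5, P0 and P14, Alfp-Cre;Pard3-fl/fl at E17.5, Foxa3-Cre;Yap-fl/fl (YapHMKO) at E15.5 and E17.5, and Foxa3-Cre with the Pard3-fl/fl and Yap-fl/fl alleles together at E17.5, with 2 libraries per group. The controls called Pard3WT, YapWT and Pard3WT YapWT carried the same Cre without floxed alleles, so a Cre was present on both sides of each of these comparisons. Livers at E15.5 of the Foxa3-Cre lines were also cultured for 2 days without addition (control) or with PD, TPPB, both, or U0126. Adult C57BL/6 Pard3-fl/fl mice at P60 were controls or had received AAV-Tbg-Cre, a virus that delivers Cre to hepatocytes, 7 days earlier (again named Pard3WT and Pard3HMKO), and were examined on days 0, 2 and 7 after removal of 70% of the liver (PHx), with 2 libraries per group on days 0 and 2 and 4 and 6 on day 7.

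Mitosis is driven by Cdk1, a kinase that becomes active when bound to cyclins A and B. Aurora and Polo kinases then build the spindle, the kinetochores attach chromosomes to it, and the spindle checkpoint holds back the anaphase-promoting complex (APC/C), a ubiquitin ligase, until every chromosome is attached. The midzone proteins and the contractile ring complete cell division, and most of these genes are transcribed in G2 and M phase, under the control of CCAAT-box and CHR promoter elements. Fetal liver grows by division of hepatoblasts and young hepatocytes, adult hepatocytes rarely divide, and partial hepatectomy brings them back into the cycle.

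The promoter windows show the elements known for this class of gene. For 31 of the 38 genes RefSeq (GRCm38.p6) gave a window from 250 bases before to 50 bases after the start; Ccna2, Aurkb, Kif20a, Tpx2, Incenp, Cdc25c and Pbk were not matched. The letters CCAAT, bound by NF-Y, were searched on both strands, as was TTTGAA, the core of the CHR element; copies that overlap, as in Ube2c where CCAAT meets its reverse complement, were each counted. A gene with more than 1 window, such as Ect2 or Prc1, counts if any of its windows matched. CCAAT was found in 24 of the 31 genes (77.4%), against 41.1% of all 27025 genes with windows of the same length. TTTGAA was also found in 24 genes (77.4%), against 20.2% of all, and both were present in the same window in 21 (67.7%), against 7.97%. More than 1 CCAAT stood in a window of 17 genes (54.8%), against 13.3% of all. A match describes the letters only, not binding.

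Below are 6 windows, 5 that hold both elements in genes the results return to, and that of Nuf2, which holds neither. Capitals mark CCAAT or TTTGAA, in either orientation. They lie at chr10:69352863-69353162 (Cdk1, minus strand), chr9:70421505-70421804 (Ccnb2, minus), chr4:118437294-118437593 (Cdc20, minus), chr11:99024140-99024439 (Top2a, minus), chr2:164769679-164769978 (Ube2c, plus) and chr1:169531415-169531714 (Nuf2, minus).

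Cdk1: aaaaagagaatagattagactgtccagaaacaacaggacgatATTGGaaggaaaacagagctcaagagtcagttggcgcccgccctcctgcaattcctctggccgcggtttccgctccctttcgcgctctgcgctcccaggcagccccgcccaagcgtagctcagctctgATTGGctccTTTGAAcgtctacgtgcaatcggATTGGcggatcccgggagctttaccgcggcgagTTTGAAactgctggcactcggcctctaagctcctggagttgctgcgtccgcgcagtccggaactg
Ccnb2: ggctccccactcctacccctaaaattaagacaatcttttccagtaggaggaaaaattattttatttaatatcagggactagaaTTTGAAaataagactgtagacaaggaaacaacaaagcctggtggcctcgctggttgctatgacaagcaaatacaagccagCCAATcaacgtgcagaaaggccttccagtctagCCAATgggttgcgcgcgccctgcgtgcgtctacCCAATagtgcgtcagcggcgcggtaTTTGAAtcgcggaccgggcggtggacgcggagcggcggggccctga
Cdc20: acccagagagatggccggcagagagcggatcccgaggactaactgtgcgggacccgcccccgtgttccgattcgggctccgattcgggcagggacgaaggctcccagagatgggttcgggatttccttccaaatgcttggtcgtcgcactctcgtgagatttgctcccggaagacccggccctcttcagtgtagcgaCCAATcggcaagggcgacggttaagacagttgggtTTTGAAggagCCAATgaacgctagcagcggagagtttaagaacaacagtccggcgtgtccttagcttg
Top2a: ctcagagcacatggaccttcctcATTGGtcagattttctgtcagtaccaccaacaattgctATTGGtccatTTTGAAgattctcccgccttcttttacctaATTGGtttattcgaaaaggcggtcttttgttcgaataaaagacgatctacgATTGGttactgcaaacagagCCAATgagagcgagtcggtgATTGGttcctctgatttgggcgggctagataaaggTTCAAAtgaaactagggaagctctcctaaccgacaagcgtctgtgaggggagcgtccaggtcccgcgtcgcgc
Ube2c: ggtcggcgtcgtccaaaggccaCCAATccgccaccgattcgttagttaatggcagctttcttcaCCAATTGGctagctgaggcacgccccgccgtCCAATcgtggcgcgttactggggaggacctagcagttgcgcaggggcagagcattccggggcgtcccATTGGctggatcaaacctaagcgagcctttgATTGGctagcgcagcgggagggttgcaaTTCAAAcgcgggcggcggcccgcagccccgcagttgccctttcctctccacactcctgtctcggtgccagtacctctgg
Nuf2: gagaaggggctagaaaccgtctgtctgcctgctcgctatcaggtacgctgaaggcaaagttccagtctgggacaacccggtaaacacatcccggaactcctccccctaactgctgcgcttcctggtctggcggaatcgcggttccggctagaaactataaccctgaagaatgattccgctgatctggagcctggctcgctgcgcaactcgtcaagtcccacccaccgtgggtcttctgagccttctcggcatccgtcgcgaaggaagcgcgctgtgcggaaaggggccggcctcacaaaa

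Ccnb2, which encodes cyclin B2, had 3 CCAAT copies at positions -87, -54 and -21 from the start, and Cdc20, the activator of the APC/C, had 2 at -53 and -8. Top2a and Ube2c each held 6. The ATAC-seq data came from E17.5 livers and E15.5 cultures. For 27 of the 31 genes (87.1%) a deposited peak covered part of a window in all 22 libraries. The share over all genes with windows was 26.4%. Nusap1, a spindle microtubule protein, had a peak in 17 libraries. Aurka, Kif2c and Tacc3 had none in any library, as did 51.4% of all genes with windows. Per library, 27 to 28 of the 31 genes carried a peak, in control and knockout livers and in every culture alike. Peak presence thus hardly varied between libraries, and peak heights were not compared. Nuf2, without either element, carried a peak in all 22.

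Depth differed widely between libraries. They held 7 to 133 cells and 4506130 to 86188713 reads, with a median of 622917 reads and 7548.5 genes per cell; no cell name was shared between libraries. All 4264 cells had reads of Alb (albumin), the defining hepatocyte gene, but 1645 of them (38.6%) also had reads for at least 50% of the marker genes of another cell type, most often erythroid (956 cells) or macrophage and myeloid (610 cells); these are called cells with other-type markers. The wild-type E15.5 and E16.5 libraries were the shallowest, at 4506130 to 7965011 reads. Cells with other-type markers made up 0% to 4.65% of their cells. These markers were counted on all reads of a cell, without thinning, so their share can differ with depth. The part of depth in differences of this share between groups was not tested. The E11.5 Foxa3-Cre libraries had 826 to 1086 CPM (reads of a gene in every 1000000 reads) of Alb, while the E11.5 B6C3F1 libraries had 19380 and 19480. Yap1, the gene targeted in YapHMKO, was low at E15.5 (0.2 and 3.7 CPM, against 55.4 and 74.0 in YapWT) and in culture, but the E17.5 libraries labelled YapHMKO had 44.8 and 44.4 CPM against 26.4 and 29.8 in their controls, and those labelled Pard3HMKO YapHMKO 37.3 and 38.6 against 24.3 and 28.0. The Yap1 counts thus went against these 2 labels at E17.5, and the results below speak of the libraries labelled YapHMKO. Pard3 was not lower in Pard3HMKO libraries (26.0 and 36.6 CPM at E17.5, against 16.6 and 27.5); the table gives 1 value for the whole gene, which does not check a deletion of part of it.

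Levels are CPM after scaling for library composition, from reads summed over the cells of a library. They compare libraries, not genes, since no gene lengths were used, and in such sums fewer dividing cells and less mitotic RNA per cell cannot be told apart. Calls are from edgeR's quasi-likelihood test at a Benjamini-Hochberg adjusted p below 0.05 over all genes of the fit, fold changes are log2 with their standard error (SE), and SD is between libraries. A second measure counts cells. Each cell was thinned to 50000 reads, and a cell with at least 10 of the 38 genes detected is called a mitotic-gene-positive cell below. Of 4257 cells deep enough, 1224 met this, and 230 lay near the limit with 8 to 11 genes, so the class is a range and not a cell type. Birc5 (survivin, of the chromosomal passenger complex) was detected in 95.1% of positive cells and 14.9% of the others, Cdk1 in 95.02% and 30.7%, Ccna2 (cyclin A2) in 84.6% and 5.74%, and Spag5, a spindle protein, in 43.4% and 2.67%. Since these genes define the class, the shares describe it and are not a test.

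In wild-type livers nearly the whole set declined as the embryo aged. From E11.5 to E19.5, 36 of the 38 genes fell with age (slope per day, edgeR quasi-likelihood test), where 17.0% of the 15662 genes tested fell, and the median slope was -0.46 log2 per day, against -0.01 over all genes. The summed level of the 38 genes was 2761 and 2662 CPM in the E11.5 libraries, 3640 and 2509 at E13.5, 1715, 1573 and 2224 at E15.5, 768 and 1073 at E17.5, and 93.2 and 203 at E19.5. The E11.5 to E13.5 libraries all lay above the E15.5 ones, and both E19.5 libraries lay below every other. Between E13.5 and E17.5 alone, libraries that share 1 form of sample description, 30 of the 38 still fell.

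**Figure D1:**
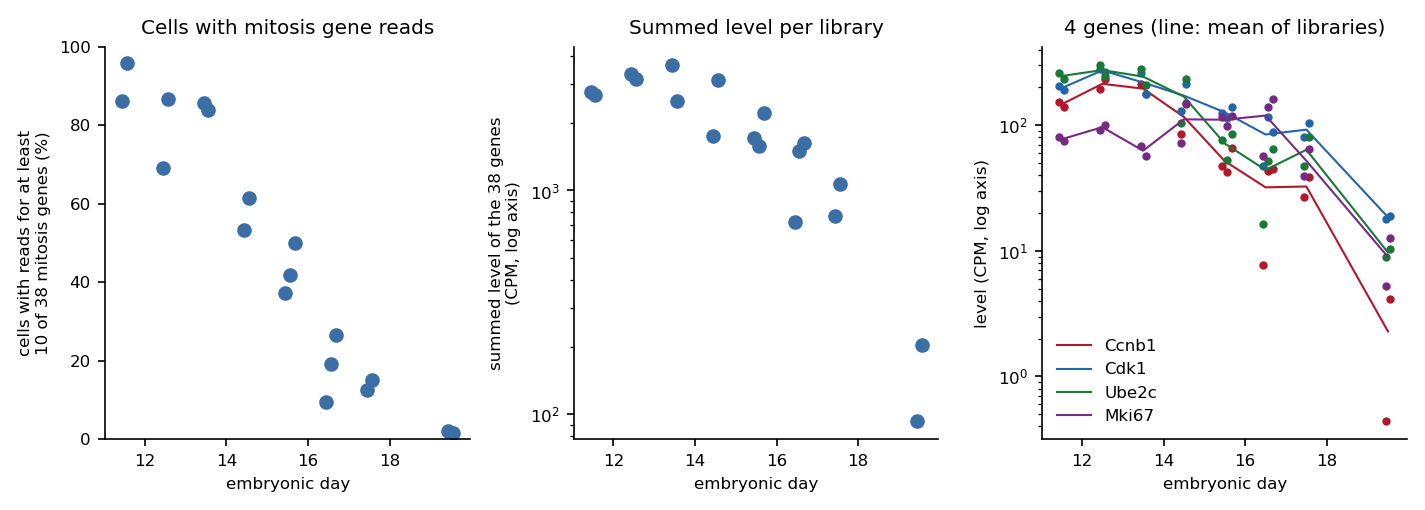
Wild-type libraries by embryonic day: share of mitotic-gene-positive cells in percent, summed level of the 38 genes and levels of Ccnb1, Cdk1, Ube2c and Mki67 (both in CPM, log axes). Points are libraries, set side by side within an age, and the lines for single genes join age means; the sum is 2761 and 2662 CPM at E11.5 and 93.2 and 203 CPM at E19.5.

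Among the cyclins and the control of Cdk1, all 6 genes fell. Ccnb1, cyclin B1, whose binding activates Cdk1, had 152 and 141 CPM at E11.5, 233 and 195 at E12.5, 47.0, 42.3 and 66.2 at E15.5, and 0.439 and 4.12 at E19.5. The E11.5 and E19.5 libraries did not overlap, and the slope of -0.70 (SE 0.11, adjusted p = 5.13e-05) was the steepest in this group. Cdk1 itself went from 204 and 191 CPM to 18.1 and 19.0 over the same span (-0.40, SE 0.06, edgeR adjusted p = 1.18e-05). Ccnb2 went from 82.2 and 89.5 CPM at E11.5 to 1.76 and 3.37 at E19.5 (-0.55, SE 0.09, edgeR adjusted p = 4.26e-05), with its highest library, 156 CPM, at E13.5.

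The kinases and the chromosomal passenger complex, which corrects faulty attachments, fell in 8 of 8 genes, with Aurkb (Aurora B) at 56.3 and 54.7 CPM at E11.5 and 0.366 and 3.52 at E19.5. The checkpoint and APC/C genes fell in 4 of 4. Ube2c, the ubiquitin-conjugating enzyme of the APC/C, had 260 and 233 CPM at E11.5 and 9.01 and 10.4 at E19.5 (-0.57, SE 0.07, edgeR adjusted p = 1.86e-06). Cdc20 dropped from 82.1 and 90.2 CPM to 2.42 and 5.04 (-0.54, SE 0.08, adjusted p = 1.71e-05), and Bub1b, the checkpoint kinase-like protein BubR1, from 33.2 and 37.2 to 0.537 and 0.44 (-0.67, SE 0.10, adjusted p = 8.72e-06). In these 3 genes no E19.5 library reached any other age.

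Of the centromere and kinetochore genes 4 of 5 fell. Cenpa, the histone H3 variant that marks the centromere, had the smallest adjusted p of the set: 143 and 136 CPM at E11.5, 75.0, 74.2 and 133 at E15.5, and 15.45 and 26.23 at E19.5 (-0.38, SE 0.05, edgeR adjusted p = 8.49e-07). The spindle genes fell in 7 of 7, among them Tacc3, a microtubule-bundling protein (-0.51, SE 0.07, adjusted p = 5.19e-06), and the midzone and cytokinesis genes in 6 of 6. Kif20a, the midzone kinesin, went from 21.3 and 20.0 CPM to 0.537 and 2.05 (-0.62, SE 0.08, edgeR adjusted p = 2.49e-06). Ect2, the exchange factor that starts furrow formation, went from 37.0 and 32.4 to 3.22 and 3.36 (-0.42, SE 0.07, edgeR adjusted p = 2.61e-05).

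Both genes that were not called had a late maximum. Mki67, the Ki-67 protein that coats mitotic chromosomes, had 80.5 and 74.3 CPM at E11.5 and its highest mean at E16.5, with 56.4, 139 and 163 CPM, before 5.25 and 12.6 at E19.5. Its slope was -0.17 (SE 0.11, edgeR adjusted p = 0.244). Cenpf, a kinetochore protein, peaked at E15.5 with 41.2, 36.9 and 55.1 CPM and had a slope of -0.28 (SE 0.13, edgeR adjusted p = 0.108). Both had their lowest libraries at E19.5. Across all 38 the highest age mean stood at E12.5 for 17 genes, at E13.5 for 15 and at E11.5 for 3, and later only for Nuf2 (E14.5), Cenpf and Mki67; the E11.5 mean was between 5.76 times (Spag5) and 72.1 times (Bub1b) that at E19.5.

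The share of mitotic-gene-positive cells took the same course. It was 86.3% and 95.9% at E11.5, 85.7% and 84.0% at E13.5, 37.1%, 41.9% and 50.0% at E15.5, 16 of 128 and 20 of 133 cells at E17.5, and 1.96% and 1.49% at E19.5. The exact (Clopper-Pearson) 95% intervals were 73.7% to 94.3% and 86.0% to 99.5% at E11.5, and 0.0496% to 10.4% and 0.0378% to 8.04% at E19.5; intervals cover counting error only. The 2 ages did not overlap within these intervals. Without thinning the E19.5 shares were 23.5% and 43.3%, so a share depends on depth and is read here only at a fixed one. Hepatocyte marker RNA (8 genes) moved the other way, from a mean of 78720 CPM at E11.5 to 147200 at E19.5. The erythroid list went from 100.3 to 578 CPM (5 of 13 tested called higher). The macrophage list went from 15.99 to 90.29 (4 of 11 tested called higher), where 18.5% of all genes were called higher. Stellate markers had a mean sum of 221 CPM at E11.5 and 55.5 at E19.5. Of 9 tested 2 were called lower, a share near the 17.0% of all genes. The part of these lists in the decline was not tested.

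Other genes of the same pathways mostly fell too. Of 38 further mitosis genes 32 fell, among them Mad2l1 (the checkpoint protein MAD2, -0.47, SE 0.06), and of 8 condensin genes 6 fell. The S-phase list, which overlaps in time but serves DNA replication, fell in 18 of 22. Among 15 regulators of G2 and M transcription 7 fell and 1 rose; Foxm1, the forkhead factor of this program, fell (-0.36, SE 0.13, edgeR adjusted p = 0.0396), while Mybl2 had a slope of 0.07 (adjusted p = 0.463). Cdkn1a, the CDK inhibitor p21, rose from 7.06 and 6.80 CPM at E11.5 to 129 and 133 at E19.5 (0.68, SE 0.11, edgeR adjusted p = 3.62e-05). The APC/C core subunits fell in 8 of 16 and rose in 1.

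In Foxa3-Cre Pard3HMKO livers no mitosis gene was called up to E15.5. In the edgeR test 0 of 38 genes were called at E11.5 (0.0754% of 18572 genes were), 0 at E13.5 (0% of all) and 0 at E15.5 (0.237%); DESeq2 also called 0 at each of these ages, and no member had an unadjusted p below 0.05. Cdk1 had 192 and 173 CPM in E11.5 knockouts and 189 and 186 in controls. At E15.5 Mki67 had 109 and 91.4 CPM against 86.3 and 75.6 (0.31, SE 0.57, edgeR adjusted p = 1). The knockout and control sums overlapped at E11.5 and E15.5. At E13.5 both knockout sums (2088 and 2038 CPM) lay above both control sums (2012 and 1593), and 32 of the 38 fold changes were positive with a median of 0.22. Positive cells made up 35.7% and 54.5% of knockout cells at E15.5 and 58.5% and 35.7% of control cells.

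From E17.5 on the knockout libraries held more mitotic RNA. At E17.5, 37 of the 38 fold changes were positive with a median of 1.13 (0.00 over all genes), but only 3 genes rose, where 7.09% of all genes did. Ccnb2 had 56.6 and 52.1 CPM in knockouts and 22.4 and 16.8 in controls (1.48, SE 0.41, edgeR adjusted p = 0.0125). Kif20a had 9.52 and 11.2 against 2.82 and 3.00 (1.83, SE 0.57, adjusted p = 0.0259), and Mki67 70.1 and 91.6 against 39.0 and 9.00 (1.76, SE 0.60, adjusted p = 0.0498). None of the 3 overlapped between groups. The share of 3 in 38 is near the background, and the count fell to 0 without knockout replicate 1, knockout replicate 2 or control replicate 2, and was 6 without control replicate 1. It was 29 without the filter on low counts and 10 when the fit held these 4 libraries alone. The share of all genes called under these settings, as under the other alternatives below, is not given.

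The share of positive cells at E17.5 was 52.9% and 64.5% in knockouts (exact 95% intervals 35.1% to 70.2% and 45.4% to 80.8%) and 12.7% and 3.33% in controls (5.27% to 24.5% and 0.406% to 11.53%). These intervals do not meet between the groups. They cover counting error within each library only, not the spread between libraries. Hepatocyte marker RNA was lower in the knockouts, at 168200 to 222600 CPM against 422800 to 467000, with 6 of its 8 genes called lower and 2 higher. Cells with other-type markers were 32.4% and 29.0% of the knockout libraries and 14.6% and 18.3% of the controls; their part in the result was not tested, though only 1 gene was called once such cells were left out. The 10 stellate markers summed to 113 to 116 CPM against 46.3 to 53.2, with 1 called (Reln), and the macrophage sums overlapped.

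At E19.5 the same comparison had 38 positive fold changes with a median of 1.73, and 5 genes rose, where 3.00% of all genes did. Ccnb2 had 48.5 and 36.8 CPM against 14.45 and 10.8 (1.76, SE 0.41, edgeR adjusted p = 0.00722), and Tacc3 25.1 and 14.9 against 4.79 and 4.35 (2.13, SE 0.56, adjusted p = 0.0182). Cenpf, Ccna2 and Plk1, the Polo-like kinase, were the others, at 2.75 (SE 0.81), 1.86 (SE 0.56) and 2.23 (SE 0.68). The positive-cell share was 29.4% and 26.2% in knockouts and 6.56% and 4.23% in controls. Leaving out knockout replicate 1 or control replicate 2 gave 0 calls, knockout replicate 2 gave 2 and control replicate 1 gave 1, and DESeq2 gave 14. No gene was called without other-type cells, which made up 38.2% and 38.5% of knockout and 50.8% and 52.1% of control cells. Hepatocyte markers were lower in the knockouts (241000 to 249800 CPM against 302800 to 305600, 3 of 8 called), as were macrophage markers (75.9 to 125.5 against 179.1 to 210, 1 of 14 called); their part was not tested.

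**Figure D2:**
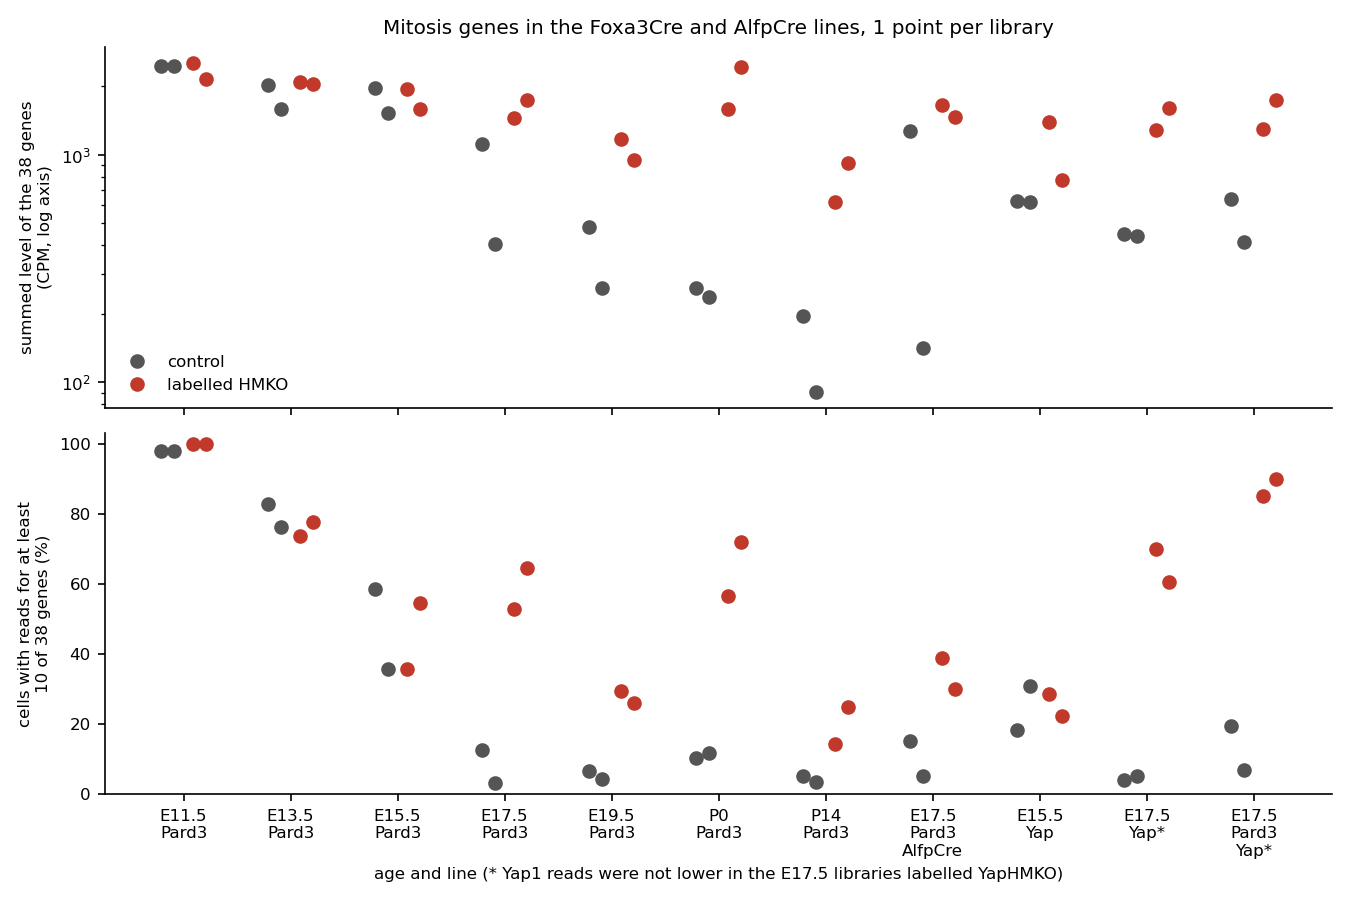
Foxa3Cre and AlfpCre libraries by age and line: summed level of the 38 genes (CPM, log axis) and share of mitotic-gene-positive cells (percent). Each point is a library, grey for controls and red for libraries labelled HMKO; at P0 the knockouts are at 1583 and 2422 CPM and the controls at 259 and 236.

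Of the 7 ages compared under Foxa3-Cre, P0 had the largest median fold change: there 37 of the 38 genes rose and 10.5% of all genes did. The summed level was 1583 and 2422 CPM in knockouts and 259 and 236 in controls, a ratio of means of 8.10, and the median fold change was 3.20, against -0.02 over all genes. In all 38 genes both knockout libraries lay above both control libraries. The share of all genes that separate in this way was not counted, so this only describes the members. Ndc80, a microtubule-binding kinetochore protein named here after its value was seen, was the gene not called, at 7.64 and 11.1 CPM against 1.37 and 0.41 (3.39, SE 1.31, edgeR adjusted p = 0.0686).

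Every role group took part at P0: cyclins and Cdk1 control rose in 6 of 6 genes, kinases and passenger complex in 8 of 8, checkpoint and APC/C in 4 of 4, kinetochore in 4 of 5, spindle in 7 of 7, midzone in 6 of 6 and chromosome structure in 2 of 2. Ccnb2 had 69.5 and 100.1 CPM against 6.85 and 5.68 (3.76, SE 0.45, edgeR adjusted p = 2.9e-07). Ccna2 had 41.5 and 74.1 against 3.64 and 3.05 (4.11, SE 0.62, adjusted p = 1.52e-05). Both cyclins were thus higher in each knockout library than in each control.

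Plk1, which acts in spindle building and cytokinesis, had 26.7 and 44.7 CPM in P0 knockouts and 1.98 and 2.43 in controls (4.01, SE 0.73, edgeR adjusted p = 0.000156). Tacc3 had 25.9 and 41.1 against 3.27 and 3.37 (3.33, SE 0.59, adjusted p = 9.87e-05). Mki67 had 151 and 198 against 29.0 and 20.5 (2.82, SE 0.61, adjusted p = 0.00131). Cdk1, present at 20.9 and 21.1 CPM in controls, stood at 107 and 172 in knockouts (2.73, SE 0.59, edgeR adjusted p = 0.00123), and Ube2c had the weakest of these calls (2.31, SE 0.81, adjusted p = 0.0428).

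Positive cells were 56.7% and 72.0% of the P0 knockout cells (exact 95% intervals 37.4% to 74.5% and 50.6% to 87.9%) and 10.3% and 11.7% of the control cells (3.89% to 21.2% and 4.82% to 22.6%). Within positive cells the 38 genes summed to 2543 and 3326 CPM in knockouts (17 and 18 cells) and 1536 and 942 in controls (6 and 7 cells). At E17.5 the order was the reverse, with 2533 and 2550 CPM in knockout positive cells and 3836 and 5179 in control ones, of which there were 7 and 2. Since the same genes choose the positive cells, these levels only describe them.

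Several other lists moved with the P0 result. Cells with other-type markers, nearly all erythroid, were 80.0% and 100% of the knockout cells and 84.5% and 68.3% of the control cells; the erythroid marker sums overlapped (2084 to 7366 CPM against 3884 to 5664, 0 of 13 called). Without such cells no cell of knockout replicate 2 remained, 14 genes were called, and the positive share was 33.3% in knockout replicate 1 and 0% and 5.26% in the controls. Hepatocyte markers summed to 148400 to 170900 CPM against 205100 to 218600. The stellate sum was 112 to 114 CPM against 7.64 to 42.5 with Reln called, and 5 of 14 macrophage markers were called lower, with sums of 84.2 to 119 against 181 to 1299; their part in the result was not tested. Calls numbered 21 to 36 when single libraries were left out, the fewest without control replicate 2 (21), and then control replicate 1 (25).

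At P14, 24 genes rose, where 9.00% of all did, the median fold change was 2.71 and all 38 were positive. The summed level was 618 and 919 CPM in knockouts and 195 and 90.9 in controls. Ccnb2 had 45.1 and 68.6 CPM against 9.23 and 5.78 (2.91, SE 0.44, edgeR adjusted p = 1.72e-05), and Prc1, the antiparallel microtubule bundler of the midzone, 31.3 and 44.7 against 3.13 and 1.45 (4.03, SE 0.82, adjusted p = 0.000991). Kif20a, at 1.42 and 1.61 CPM in knockouts against 0.0813 and 0.0963 in controls (4.04, SE 0.81, adjusted p = 0.000383), and Ect2, at 7.88 and 13.1 against 2.24 and 0.578 (2.86, SE 0.53, adjusted p = 0.000213), completed the 4 genes of smallest p, 3 of them midzone or cytokinesis genes.

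Midzone and cytokinesis genes rose in 5 of 6 at P14, and kinetochore genes in 4 of 5. Checkpoint and APC/C genes rose in 1 of 4, Cdc20, at 16.1 and 35.1 CPM against 2.81 and 0.626. Ube2c had 24.4 and 75.7 CPM against 16.1 and 5.06 (2.23, SE 0.83, edgeR adjusted p = 0.0719), and Ccnb1 18.4 and 42.9 against 16.4 and 1.69 (1.73, SE 0.85, adjusted p = 0.197), with control replicate 1 close to the lower knockout library. Positive cells were 14.3% and 25.0% of knockout cells (exact 95% intervals 4.81% to 30.3% and 9.77% to 46.7%) and 5.36% and 3.51% of control cells (1.12% to 14.9% and 0.428% to 12.1%), so the counting intervals overlapped.

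Cells with other-type markers were 94.3% and 100% of the P14 knockout cells and 73.2% and 61.4% of the control cells. Without them only 2 knockout cells, both of replicate 1, remained. That is too few to show whether the calls depend on other-type cells. Macrophage marker sums overlapped (252 to 407 CPM against 284 to 509, 0 of 14 called), as did the stellate sums (48.5 to 276 against 25.7 to 54.5, with Acta2 called), and hepatocyte markers were higher, at 169600 to 183800 CPM against 140000 to 148000. Biliary markers were higher too, at 64.6 to 115 CPM against 19.3 to 21.51 (2 of 7 called higher), while the erythroid sums (216.5 to 292, both below the controls, of which the higher had 878; 1 of 13 called lower) and endothelial sums (18.9 in both against 42.3 to 59.3, 0 of 11 called) were lower. The part of these in the result was not tested. Calls were 7 without control replicate 2, 14 without knockout replicate 2 and 38 without the filter on low counts. The knockout effect at P14 minus that at P0 was called for 0 of 38 genes (edgeR, 15.6% of all genes; 2 at an unadjusted p below 0.05; DESeq2 1), so a smaller effect at P14 than at P0 was not shown.

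In Foxa3-Cre controls the summed level was 482 and 260 CPM at E19.5, 259 and 236 at P0 and 195 and 90.9 at P14. P0 against E19.5 gave 0 calls (edgeR, 14.4% of all genes called; 5 members at an unadjusted p below 0.05; DESeq2 3), with Cdk1 at 20.9 and 21.1 CPM at P0 and 55.2 and 23.7 at E19.5. P14 against P0 gave 3 genes that fell, where 11.1% of all genes did: Kif20a (-3.25, SE 0.82), Ect2 (-2.01, SE 0.53) and Cdk1, which had 8.95 and 3.42 CPM at P14 (-1.75, SE 0.61, edgeR adjusted p = 0.0447). The share of members that fell was below that of all genes. The P0 controls enter both of these comparisons and the P0 knockout comparison. Between P0 and P14 the erythroid sum of these controls went from 3884 to 5664 CPM down to at most 878 (1 of 13 called lower, 1 higher), hepatocyte markers went from 205100 to 218600 down to 140000 to 148000 (3 of 8 called lower), and endothelial markers from 3.59 to 8.99 up to 42.3 to 59.3 (3 of 11 called higher); their part was not tested. Of the 3 calls 1 remained without replicate 2 of either age and 2 without P0 replicate 1.

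**Figure D3:**
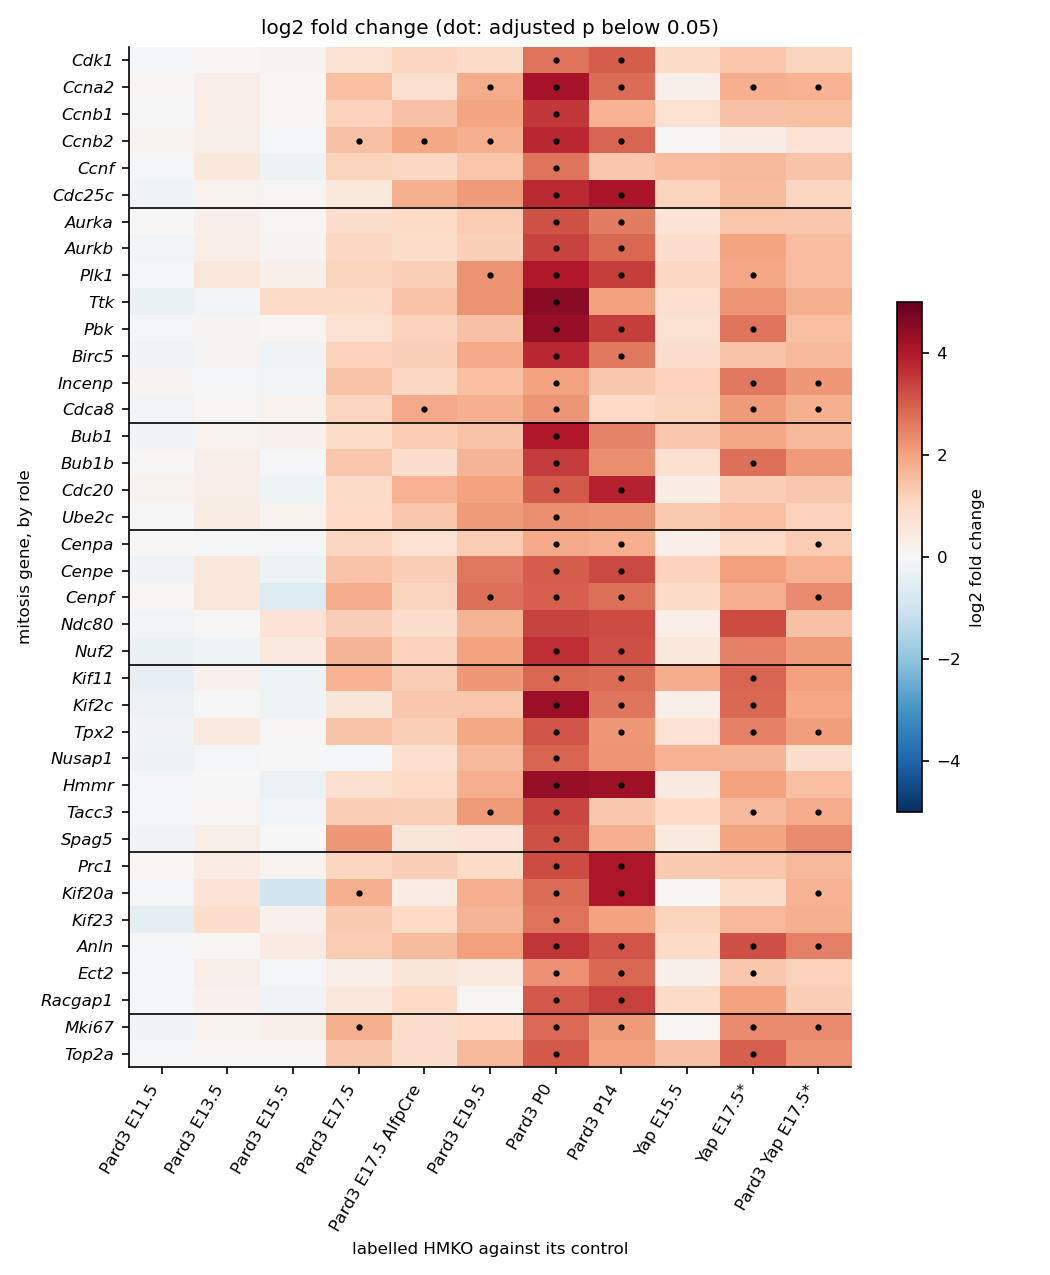
Colour map of the log2 fold change of each of the 38 genes (rows, by role) in the 11 in vivo comparisons of libraries labelled HMKO with their controls (columns); a dot marks an adjusted p below 0.05 (edgeR). The median is 1.13 at E17.5, 1.73 at E19.5, 3.20 at P0 and 2.71 at P14 for Foxa3Cre Pard3HMKO against Pard3WT.

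The other lists differed by age. At P0 23 of 38 further mitosis genes, 8 of 8 condensin genes and 20 of 22 S-phase genes rose, where 10.5% of all genes did. At P14 the counts were 16, 6 and 9 (9.00% of all), at E19.5 7, 0 and 10 (3.00%) and at E17.5 3, 1 and 12 (7.09%), where the share of further mitosis genes was near that of all genes. Foxm1 rose at P0, with 10.8 and 17.9 CPM against 1.43 and 0.439 (3.93, SE 0.92, edgeR adjusted p = 0.00202). Cdkn1a fell at E19.5 (9.85 and 15.9 CPM against 71.1 and 67.8) and at P0 (22.1 and 1.07 against 85.1 and 73.8; -2.75, SE 0.75, edgeR adjusted p = 0.00877), but at P14 it had 107 and 77.0 against 52.4 and 57.7 (0.74, SE 0.70, adjusted p = 0.561). Cdkn1c, the CDK inhibitor p57, rose at P0 together with the mitosis genes, at 374 and 359 CPM against 38.0 and 33.0 (3.37, SE 0.14, edgeR adjusted p = 1.29e-18).

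Alfp-Cre knockouts, and the libraries labelled YapHMKO or Pard3HMKO YapHMKO, also had calls among the mitosis genes at E17.5. With Alfp-Cre, 2 genes rose, where 2.23% of all genes did, with a median of 1.13 and 38 positive fold changes: Ccnb2, at 47.5 and 69.0 CPM against 20.7 and 9.57 (1.94, SE 0.41, edgeR adjusted p = 0.00338), and Cdca8 (borealin, of the passenger complex), at 91.5 and 85.5 against 43.2 and 4.59 (1.89, SE 0.55, adjusted p = 0.048). The Alfp-Cre controls were far apart, with sums of 1274 and 140.7 CPM. Leaving out control replicate 1 gave 32 calls, while leaving out control replicate 2 or knockout replicate 2 gave 0 and knockout replicate 1 gave 1. The positive share was 38.8% and 30.0% in knockouts and 15.1% and 5.36% in controls. Hepatocyte markers were lower in the knockouts here too (180100 to 188600 CPM against 285900 to 322300).

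The libraries labelled YapHMKO gave 0 calls at E15.5 (edgeR, 0.302% of all genes called; 2 members at an unadjusted p below 0.05; DESeq2 0). All 38 fold changes were positive there, with a median of 0.88, and the sums of 1384 and 776.5 CPM lay above the 628 and 620 of YapWT. Mki67 overlapped, at 64.3 and 31.3 CPM against 37.9 and 52.0. At E17.5, where Yap1 went against the label, 14 genes rose and 6.68% of all did, with a median of 1.93. Anln, the anillin scaffold of the contractile ring, had 14.7 and 14.8 CPM against 0.819 and 2.26 (3.24, SE 0.77, edgeR adjusted p = 0.00413). Kif2c, the kinesin that depolymerises microtubules at centromeres, had 10.3 and 14.0 against 2.76 and 0.591 (2.87, SE 0.75, adjusted p = 0.00793), and Mki67 70.6 and 76.7 against 13.8 and 14.7 (2.37, SE 0.61, adjusted p = 0.00901). These genes did not overlap between groups, and the positive share was 70.0% and 60.6% (exact 95% intervals 50.6% to 85.3% and 42.1% to 77.1%) against 4.08% and 5.17% (0.498% to 14.0% and 1.08% to 14.4%).

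Leaving out any 1 library of this E17.5 comparison left 7, 3, 2 or 2 calls (labelled YapHMKO replicates 1 and 2, then YapWT replicates 1 and 2), and 5 were called without other-type cells, which were 93.3% and 93.9% against 83.7% and 72.4%. Hepatocyte markers summed to 203900 to 220600 CPM against 426600 to 428600. With these 4 libraries alone in the fit 35 genes were called, and the share of all genes called in that fit is not given. Foxm1 rose, at 8.12 and 10.9 CPM against 0.212 and 0.283 (5.24, SE 1.03, edgeR adjusted p = 0.000575), and 18 of 22 S-phase genes rose.

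In the libraries labelled Pard3HMKO YapHMKO 10 genes rose, where 6.88% of all did, with a median of 1.63. Mki67 had 57.1 and 90.8 CPM against 19.1 and 9.89 (2.36, SE 0.62, edgeR adjusted p = 0.00966), Anln 11.8 and 22.2 against 3.48 and 2.49 (2.51, SE 0.75, adjusted p = 0.0221), and Cenpa 80.6 and 78.4 against 33.9 and 31.9 (1.27, SE 0.40, adjusted p = 0.0318). The positive share, 85.0% and 90.0% against 8 of 41 and 4 of 57 control cells, had exact 95% intervals of 62.1% to 96.8%, 68.3% to 98.8%, 8.82% to 34.9% and 1.95% to 17.0%. Calls fell to 3, 0, 2 and 0 when replicate 1 and replicate 2 of these libraries and then control replicates 1 and 2 were left out, and to 0 without other-type cells (65.0% and 70.0% of their cells and 48.8% and 33.3% of control cells). Hepatocyte markers summed to 171300 to 194100 CPM against 399600 to 410700, with 6 of 8 called lower and 2 higher, and stellate markers to 107.5 to 123.1 against 51.4 to 56.7, with 1 of 10 called higher; their part in the result was not tested. With these 4 libraries alone in the fit 33 were called, and the share of all genes called in that fit is not given. Whether the 4 differences from controls at E17.5 differ from each other was not tested.

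In cultured Pard3WT liver all 38 fold changes against uncultured liver of the line were negative, while in YapWT 25 were negative and 13 positive. Pard3WT controls cultured for 2 days gave 8 genes that fell against uncultured E15.5 libraries, where 13.3% of all genes did, with a median fold change of -1.64. In the fit that joins both, the sum was 328 and 1158 CPM in culture and 3061 and 2333 uncultured; scaling is set within each fit, so these sums differ from those of the in vivo fit. Cenpa had 10.1 and 26.2 CPM against 168 and 170 (-3.23, SE 0.57, edgeR adjusted p = 0.00104), and Birc5 13.7 and 80.5 against 454 and 302 (-3.01, SE 0.69, adjusted p = 0.00835). Neither overlapped. The count was 19 without cultured replicate 2, 2 without cultured replicate 1 or uncultured replicate 1, 6 without uncultured replicate 2, and 25 without other-type cells.

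Hepatocyte markers fell along with them, at 23550 to 25650 CPM in culture and 267700 to 298000 uncultured, and 10 of 13 erythroid markers were called lower (36.6 to 49.2 CPM against 996.9 to 3750). Stellate markers were called lower in 6 of 10 genes (13.02 to 21.3 CPM against 162 to 171.5), and macrophage markers higher in 4 of 14 (45.8 to 46.9 against 3.90 to 4.40). The part of these lists in the result was not tested. Cdkn1a rose in culture (4.93, SE 0.84). In YapWT 2 genes fell, Aurkb (-3.77, SE 0.75) and Ttk, the checkpoint kinase Mps1 (-3.17, SE 0.96), where 14.1% of all genes fell, and the sums overlapped at 1003 and 445 against 1009 and 989 CPM; 1 gene was called without cultured or uncultured replicate 2. The share of members that fell in YapWT was below that of all genes. Here 7 of 8 hepatocyte markers were called lower (24540 to 46520 CPM against 165900 to 177100) and 5 of 14 macrophage markers higher (449 to 838 against 33.2 to 36.0).

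**Figure D4:**
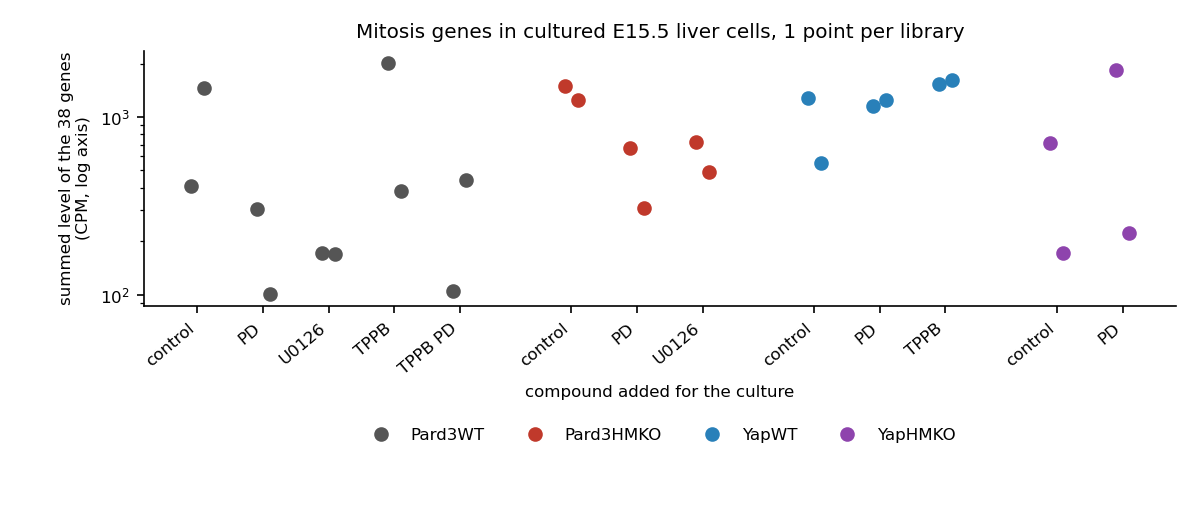
Summed level of the 38 genes (CPM, log axis) in the cultured E15.5 libraries by line and addition; each point is a library. Pard3WT libraries are at 408 and 1451 CPM in control, 302 and 100.3 with PD, and 172 and 169 with U0126.

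The cultured Pard3WT controls differed from each other, at 408 and 1451 CPM in sum, from 17 and 15 cells. With PD the sum was 302 and 100.3 CPM and 3 genes fell, where 6.78% of all genes did, with a median of -2.33: Kif20a, at 0.513 and 0.321 CPM against 3.396 and 11.09 (-4.08, SE 1.06, edgeR adjusted p = 0.0108), Ndc80 (-4.66, adjusted p = 0.0312) and Kif2c (-3.90, adjusted p = 0.0437). Macrophage markers were lower with PD (10.99 to 14.46 CPM against 57.4 to 58.4, 2 of 14 called) and with U0126 (11.7 to 20.4, 3 called), which was not tested as a part of the result. With U0126, known as a MEK inhibitor, the sum was 172 and 169 CPM, the median -2.50, and 1 gene fell, Kif23, a midzone kinesin, at 0.208 and 0 CPM against 11.7 and 17.6 (-6.81, SE 2.11, edgeR adjusted p = 0.0443), where 5.73% of all genes fell. All 38 fold changes were negative with either addition, but these calls are few, with shares near or below those of all genes. Without PD replicate 2 or control replicate 2 no gene was called for PD (1 without PD replicate 1, 4 without control replicate 1), and for U0126 0 remained without U0126 replicate 1 or 2 or control replicate 2 and 2 without control replicate 1.

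TPPB, known as an activator of protein kinase C, gave 0 calls in Pard3WT (edgeR, 6.79% of all genes; 0 members at an unadjusted p below 0.05; DESeq2 0), at sums of 2024 and 384 CPM. Adding PD to TPPB gave 4 genes that fell against TPPB alone, where 12.1% of all genes did: Ect2, at 4.23 and 3.89 CPM against 31.4 and 16.3 (-2.55, SE 0.72, edgeR adjusted p = 0.0114), Bub1b (-7.01, SE 2.09), Anln (-3.36, SE 1.06) and Cdca8 (-2.72, SE 0.89). The share of members that fell was below that of all genes. The sums of 105 and 441 CPM overlapped those of TPPB alone. Beside these, 7 of 8 hepatocyte markers were called higher (17050 to 20090 CPM against 5925 to 6333), 3 of 13 erythroid markers higher (700.5 to 1923 against 67.4 to 90.3), and 2 of 14 macrophage markers lower (12.2 to 18.5 against 49.1 to 60.5); their part was not tested. No gene remained called without TPPB PD replicate 1 or TPPB replicate 1, 2 without TPPB PD replicate 2 and 5 without TPPB replicate 2. PD and U0126 are different compounds at doses not compared here, and their difference was not tested.

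In the knockout cultures no member was called. Cultured Pard3HMKO had sums of 1485 and 1244 CPM in control, 667 and 306 with PD and 728 and 493 with U0126, so both additions lay below the controls. The edgeR test called 0 members for PD (14.54% of all genes; 2 at an unadjusted p below 0.05; DESeq2 0) and 0 for U0126 (17.8%; 1; DESeq2 1). Mki67 had 23.1 and 13.47 CPM with PD and 44.7 and 38.1 in control. The PD effect in Pard3HMKO minus that in Pard3WT was called for 0 (edgeR, 0.808% of all genes; 0 at an unadjusted p below 0.05; DESeq2 0), and the untreated Pard3HMKO cultures against the Pard3WT ones for 0 (edgeR, 4.92%; 0; DESeq2 0).

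Cultured YapWT had sums of 1272 and 549 CPM in control, 1156 and 1252 with PD and 1534 and 1611 with TPPB. Here 0 members were called for PD (edgeR, 17.53% of all genes; 1 at an unadjusted p below 0.05; DESeq2 1) and 0 for TPPB (edgeR, 10.5%; 0; DESeq2 0). YapHMKO cultures had 717 and 171 CPM in control and 1839 and 223 with PD, again with 0 calls (edgeR, 20.0%; 2; DESeq2 1), and YapHMKO against YapWT controls gave 0 (edgeR, 9.18%; 2; DESeq2 2). The PD sums in YapWT lay within the range of their controls, while in both Pard3 lines they lay below. In YapHMKO the PD sum of 223 CPM lay within the control range and that of 1839 CPM above it. All 38 fold changes with PD in YapHMKO were positive, with a median of 1.34. The difference between Yap and Pard3 lines was not tested. Positive cells were 35.3% and 33.3% of cultured Pard3WT control cells, 8.70% and 0% with PD (exact 95% intervals 14.2% to 61.7%, 11.8% to 61.6%, 1.07% to 28.0% and 0% to 14.2%), and 58.3% and 54.2% of YapWT cells with TPPB.

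Adult livers held little of this RNA. The summed level of the 38 genes was 24.3 and 21.6 CPM in Pard3WT on day 0 and 25.0 and 23.7 in Pard3HMKO, and no positive cell was seen among 113 and 119 cells. The day 0 comparison gave 0 calls (edgeR, 0% of 15391 genes; 0 members at an unadjusted p below 0.05; DESeq2 0), and the sums of the genotypes overlapped.

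On day 2 after hepatectomy the sums were 45.0 and 52.7 CPM in Pard3WT and 37.6 and 49.6 in Pard3HMKO, above both day 0 libraries in each genotype. Ccnf (cyclin F) alone made up 79.0% and 74.3% of the Pard3HMKO sums and 65.5% and 39.4% of the Pard3WT ones. Without it, a choice made after seeing the data, the Pard3HMKO sums were 7.90 and 12.8 CPM on day 2 and 11.48 and 15.03 on day 0, which overlap, and the Pard3WT ones 15.52 and 31.9 against 11.3 and 10.6. Fold changes were positive in 13 of 38 genes in Pard3HMKO and in 28 of 38 in Pard3WT. No member was called in Pard3WT (edgeR, 15.7% of all genes; 5 at an unadjusted p below 0.05; DESeq2 2) or in Pard3HMKO (edgeR, 18.8%; 1; DESeq2 0). Top2a, the topoisomerase that untangles chromosomes, had 0.341 and 3.76 CPM in Pard3WT on day 2 and 0.0477 and 0.0362 on day 0 (5.64, SE 2.06, edgeR adjusted p = 0.0754). In Pard3HMKO it had 0.0796 and 0.163 CPM on day 2 and 0.259 and 0.224 on day 0. The knockout against control on day 2 gave 0 calls (edgeR, 3.18% of all genes; 5; DESeq2 1), and the difference between the 2 day 2 responses gave 0 (edgeR, 2.36%; 3; DESeq2 0). Replicate 1 of Pard3WT on day 2 held 7 cells and replicate 2 held 76, 1 of them positive (1.32%, exact 95% interval 0.0333% to 7.11%).

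**Figure D5:**
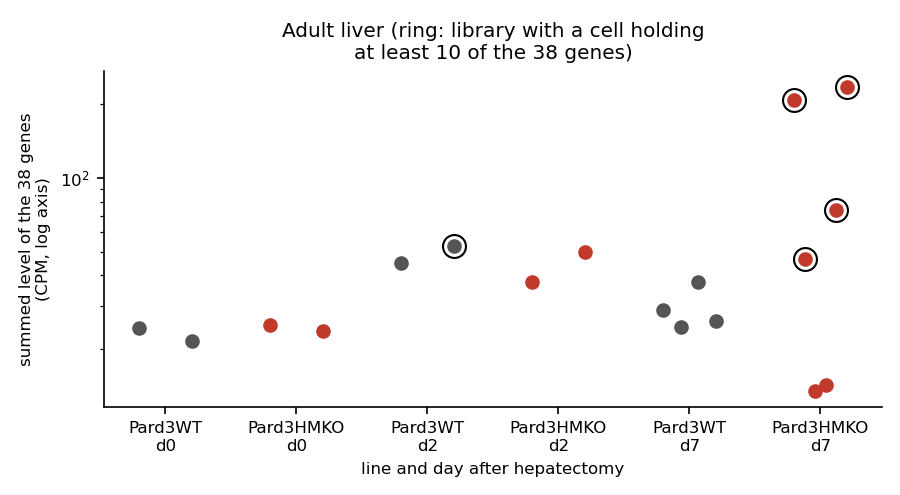
Adult libraries by genotype and day after hepatectomy: summed level of the 38 genes (CPM, log axis). Points are libraries, ringed where at least 1 cell was mitotic-gene-positive; on day 7 the 6 Pard3HMKO libraries spread from 13.4 to 237 CPM and the 4 Pard3WT libraries from 24.6 to 37.6.

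On day 7 the knockout libraries spread widely. The sums were 209, 46.6, 13.4, 14.3, 74.3 and 237 CPM in the 6 Pard3HMKO libraries and 29.0, 24.6, 37.6 and 26.0 in the 4 Pard3WT libraries, so 4 knockout libraries lay above every control and 2 below. Against Pard3WT 7 genes rose, where 2.77% of all genes did: Hmmr, Plk1, Cenpe, Top2a, Pbk, Aurkb and Cdc20. Hmmr, a spindle-assembly factor, had 3.27, 0.817, 0, 0, 1.09 and 2.27 CPM against 0 in all 4 controls, a mean at least 66.3-fold higher (floor of 3 counts over the group; edgeR adjusted p = 0.0101). Plk1 had 3.14, 0.0527, 0.163, 0.28, 0.403 and 2.98 CPM against 0 in all 4, at least 62.6-fold higher (edgeR adjusted p = 0.0136). Cenpe, the kinetochore kinesin, was at least 35.3-fold and Cdc20 at least 107-fold higher on the same floor. These bounds treat reads as independent and do not cover the spread between cells or libraries. Without knockout replicate 1 the bound of Plk1 was 41.5, and without replicate 6 that of Cdc20 was 41.8. Top2a had 9.97, 1.79, 0, 0.14, 1.41 and 12.1 CPM against 0.0585, 0, 0.061 and 0.276 (5.36, SE 1.35, edgeR adjusted p = 0.0258).

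In these 7 genes replicates 1 and 6 were the highest and replicates 3 and 4 had 0.28 CPM or less. Positive cells were 4 of 133 in Pard3HMKO, 1 each in replicates 1, 2, 5 and 6, and 0 of 206 in Pard3WT. That 1 cell held 77.7% of the reads of the 38 genes in replicate 1 and 86.1% in replicate 6, so in these 2 libraries 1 cell each gave most of the summed level. Replicates 3 and 4 held 12 and 9 cells, all with other-type markers. Among macrophage and stellate markers 6 of 14 and 4 of 10 were called higher in the knockouts, with sums of 26.8 to 102 CPM against 19.9 to 27.1 and of 29.9 to 247 against 3.72 to 22.9; their part was not tested. Leaving out a control replicate gave 2 to 4 calls (3, 2, 4 and 3 for replicates 1 to 4), and leaving out knockout replicate 4 gave 16, replicate 5 gave 11 and replicate 1 gave 5.

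Within genotypes, day 7 against day 2 showed 4 genes that fell in Pard3WT, a share near the 9.28% of all genes that did. Other lists moved too: 3 of 14 macrophage markers (19.9 to 27.1 CPM against 65.5 to 117) and 2 of 7 biliary markers (22.7 to 66.7 against 540 to 1943) were called lower. Of 7 erythroid markers tested 5 were called lower, but the erythroid sums overlapped (39.65 to 46.07 CPM against 36.63 to 5001). The part of these lists was not tested. Hmmr went from 3.92 and 0.366 CPM to 0 in all 4 libraries, a level at least 114.6-fold lower, but at least 19.6-fold lower without day 2 replicate 1, the library of 7 cells. Plk1 went from 0 and 0.282 CPM to 0, at least 7.52-fold lower, a bound that rests on day 2 replicate 2 alone. Aurkb and Top2a were the others. Without day 2 replicate 2 only 1 gene was called, and 2 without day 7 replicate 1 or 2. In Pard3HMKO 3 genes rose from day 2 to day 7, where 10.7% of all genes did: Plk1 (at least 43.6-fold higher), Ndc80 (at least 41.2-fold) and Spag5 (at least 24.7-fold). Without day 2 replicate 2 these bounds were 19.6, 18.5 and 11.1. All fold bounds between day 2 and day 7 likewise count reads only, not the spread between cells or libraries. The share of members that rose was below that of all genes. Ccnf fell from 29.7 and 36.9 CPM to 5.94, 9.38, 0.409, 0.28, 5.52 and 5.61 (-2.80, SE 0.63, edgeR adjusted p = 0.00462), where 9.62% of all genes fell. It was the only member with a negative fold change in this comparison. In Pard3WT it had 29.5 and 20.7 CPM on day 2 and 13.02 and 10.98 on day 0. For day 7 against day 2 in Pard3HMKO 1 gene was called without either day 2 replicate, 2 without day 7 replicate 1, and 10 and 11 without day 7 replicates 3 and 4.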

How the data were processed

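The deposited table gave read counts per gene and cell for 4264 cells of 106 RNA libraries. The authors made these counts by alignment to GRCm38 (mm10) with HISAT2 2.1.0 after Trimmomatic 0.39 and FastQC 0.11.9, per the submitters' processing notes. The counting tool and its strand setting were not given in the sources used here. Per the labels' protocols the cells came from an EpCAM sort of endodermal tissue. ATAC-seq peak lists, with a deposited score per peak as in the file headers, came from MACS 1.4.2 and HOMER, run on mm10 alignments by Bowtie2 2.2.5 with SAMtools 1.3.1, per the submitters' processing notes. Peaks were used by position only, any overlap of 1 base with a promoter window counting.

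Counts were summed per library, leaving out 92 spike-in rows (126 reads), which ranged from 4506130 to 86188713 reads per library. edgeR 4.0.16 (R 4.3.3; filterByExpr, TMM, quasi-likelihood test, robust) was fitted in 5 sets: wild type (18 libraries, 15662 genes, slope on age), in vivo Foxa3Cre and AlfpCre (44 libraries, 18572 genes), cultures (26, 16715), cultured with uncultured E15.5 (16, 16684) and adult (18, 15391). P-values were adjusted over all genes of a fit and called below 0.05. Nothing in the labels says that libraries of a group came from separate litters, so p-values measure only the spread between these libraries. The code recovered known changes in simulated counts, drawn from each fit's own spread and placed only in genes with enough reads. This checks the code and not the results for genes with few reads. A cell counts as other-type where at least 50% of the listed marker genes of 1 of 5 lineages (erythroid, macrophage and myeloid, endothelial, stellate, lymphoid) had a read. Cells were not thinned for this. Unless said otherwise, marker calls are counted out of all listed genes present, including those too low to be tested. Alternatives were DESeq2 1.42.0, its size factors in edgeR, no filter on low counts, only the libraries compared, a replicate block, each library left out, and only cells without other-type markers. Cells were thinned and tables joined in Python 3.11.15 with numpy 2.4.6 and pandas 2.3.3; figures used matplotlib 3.10.9.

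The 38 genes and the other lists were chosen with earlier results of these data known. Named genes are, in wild type, the called genes of smallest adjusted p and those not called, up to 12; elsewhere up to 4 called genes per direction of smallest adjusted p. Mki67, Top2a, Cdk1, Ccnb1, Plk1, Aurkb, Cdc20 and Ube2c may be named in any comparison, and from other lists up to 3 called genes each, besides Foxm1, Mybl2, Cdkn1a, Pard3, Yap1 and Alb.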

Additional observations from a re-analysis of the deposited data

Results flagged for a closer look

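The values of 3 genes stood apart from the other libraries of their group by the gap of an extreme library relative to the group's range. Among the 4 day 7 Pard3WT libraries replicate 3 had 0.732 CPM of Mki67 and 0.397 CPM of Ccnb1, where the others had at most 0.085 and 0 CPM, and replicate 4 had 0.0425 CPM of Aurkb where the others had 0. Of 18 values tested this way, 3 were flagged. The nominal rate of about 1 in 20 does not hold for genes at or near 0 CPM. Where all other libraries have 0 CPM, any reads in 1 library are flagged.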

How the results depend on the processing

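Numbers are mitosis genes called. The share of all genes called under each alternative setting is not given here. A count under such a setting can therefore not be read against its background. The wild-type decline gave 35 to 38 of 38 under every setting that used all ages, against 36 in the main fit. It gave 30 for E13.5 to E17.5 alone, and 33 to 36 with single libraries left out. Of the 167 gene values, 1833 alternatives kept direction and call, 414 lost the call and 18 changed sign. Counts of calls in the other comparisons depended on the setting, and the cause was not tested.

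Without the filter on low counts, P0 against E19.5 in Pard3WT gave 17 and P14 against P0 23; Pard3HMKO against Pard3WT gave 29 at E17.5, 35 at E19.5 and 38 at P14, AlfpCre 30, the P14 minus P0 effect 11, the libraries labelled YapHMKO 14 at E15.5 and 36 at E17.5, and those labelled Pard3HMKO YapHMKO 37. In culture it gave 30 each for PD and U0126 in Pard3WT, 29 for TPPB PD against TPPB, 18 and 11 for PD and U0126 in Pard3HMKO, 8 and 10 for PD and TPPB in YapWT, 17 for PD in YapHMKO, 1 for the PD difference between lines, 2 and 11 for the Pard3HMKO and YapHMKO controls, and 28 and 12 for culture against uncultured Pard3WT and YapWT. In adults it gave 7 and 13 in Pard3WT for day 2 and day 7, 2 and 25 in Pard3HMKO, 3 and 25 for the genotypes on days 2 and 7, and 2 for the difference of day 2 responses.

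DESeq2 gave 3 for P0 against E19.5, 5 and 14 for Pard3HMKO at E17.5 and E19.5, 1 for P14 minus P0, 11 each for PD and U0126 in Pard3WT, 10 for TPPB PD, 1 each for U0126 in Pard3HMKO and PD in YapWT and YapHMKO, 2 for YapHMKO controls, 16 and 4 for culture in Pard3WT and YapWT, 2 for day 2 in Pard3WT, 19 for day 7 in Pard3HMKO, and 1 and 20 for the genotypes on days 2 and 7. Its size factors in edgeR gave 3 at E19.5 and 1 for AlfpCre.

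With only the libraries compared the counts were 2 and 1 for the P0 and P14 controls, 10 at E17.5, 24 at E19.5, 0 for AlfpCre, 2 for P14 minus P0, 35 for those labelled YapHMKO at E17.5 and 33 for those labelled Pard3HMKO YapHMKO; 10, 14 and 7 for PD, U0126 and TPPB PD in Pard3WT, 9 and 11 for PD and U0126 in Pard3HMKO, 2 for PD in YapWT, and 14 and 6 for culture; and 2 for day 7 in Pard3WT, 1 and 2 for days 2 and 7 in Pard3HMKO and 3 for the genotypes on day 7.

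Deviations of same-numbered libraries correlated at -0.0541 to 0.0662 over 68 pairs, 0 above 0.1, which gave no sign that replicate numbers pair the libraries. Between groups of 2 libraries both pairs give the same value, so the 68 pairs are not independent. With the replicate block AlfpCre gave 4, PD 1, U0126 0 and TPPB PD 2 in Pard3WT, day 7 against day 2 1 in Pard3WT and 2 in Pard3HMKO, and the genotypes on day 7 gave 3; no other count of calls moved by over 1.5 times (36 at P0, 24 at P14).

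Without cells holding other-type markers the counts were 1 for P0 against E19.5, 1 at E17.5, 0 at E19.5, 14 at P0, 0 at P14, 0 for AlfpCre, 2 for P14 minus P0, 5 for those labelled YapHMKO at E17.5, 0 for those labelled Pard3HMKO YapHMKO, 0 for PD in Pard3WT, 25 and 0 for culture in Pard3WT and YapWT, 1 each for day 2 and day 7 in Pard3WT and 4 for the genotypes on day 7. Replicate 2 of P0 and of P14 Pard3HMKO and replicates 3 and 4 of day 7 Pard3HMKO had no such cell. At P14 neither the count nor the fold changes of this setting can show a dependence on other-type cells. With 2 knockout cells left at P14, fold changes of called genes turned negative: Cdc20 -5.67, Birc5 -9.29, Hmmr -6.84, Aurkb -6.23, Pbk -8.39, Racgap1 -6.64, Cenpf -5.64, Nuf2 -5.09, Tpx2 -7.47, Ccna2 -7.88, Kif2c -5.38, Cenpa -8.80, Mki67 -3.24, Ccnb2 -0.90, Prc1 -7.83, Cdc25c -3.22 and Cenpe -7.04. In Pard3WT, Aurkb on day 7 against day 2 ran from -8.19 without day 7 replicate 4 to 2.2 without day 2 replicate 2. Without Ccnf, left out after seeing the data, the log2 ratio of summed levels on day 2 against day 0 in Pard3HMKO was -0.36, against 0.84 with it.

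Leaving out single libraries, where a group of 1 was assumed to vary like the others, gave 0 to 6 at E17.5, 0 to 2 at E19.5, 21 to 36 at P0, 7 to 20 at P14, 0 to 32 for AlfpCre, 2 to 7 for those labelled YapHMKO at E17.5, 0 to 3 for those labelled Pard3HMKO YapHMKO, 1 to 3 for P14 against P0, 0 to 4, 0 to 2 and 0 to 5 for PD, U0126 and TPPB PD in Pard3WT, 0 to 1 for PD and for TPPB in YapWT, 0 to 2 for PD in YapHMKO, 2 to 19 and 1 to 3 for culture in Pard3WT and YapWT, 0 to 1 and 1 to 3 for days 2 and 7 in Pard3WT, 1 to 11 for day 7 in Pard3HMKO and 2 to 16 for the genotypes on day 7.

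The mean positive share at 50000 reads, 200000 reads, all reads and for at least 19 genes was 91.1%, 98.0%, 99.0% and 82.0% in E11.5 wild type; 1.73%, 4.2%, 33.4% and 0.746% at E19.5; 11.01%, 17.01%, 54.4% and 4.25% in P0 Pard3WT; and 64.3%, 92.9%, 100% and 44.3% in P0 Pard3HMKO. Without other-type cells it was 1.28% at E19.5, 2.63% in P0 Pard3WT and 33.3% in P0 Pard3HMKO. Libraries of 7 to 24 cells limit what the cultures and days 2 and 7 can show.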
